A study of Arabidopsis thaliana with 9 samples.

Results

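The ribosomal protein S and L genes of the Arabidopsis thaliana nuclear genome were followed in the male germline of growing pollen tubes. They were taken as every nuclear gene whose description in the deposited table holds the words ribosomal protein S or ribosomal protein L, which gave 302 of 32833 genes. Sorted by description and by the notes of the reference annotation, 172 of them encode cytosolic ribosomal proteins in 62 subunit families, 34 plastid ones and 19 mitochondrial ones. A further 41 encode proteins of the bacterial type whose compartment is not stated. The remaining 36 are no ribosomal proteins and only share the words, such as LOS1, a translation elongation factor, or the plant-specific proteins described as an L18ae family. Of the cytosolic genes, 79 belong to the small (40S) and 93 to the large (60S) subunit. The sorting depends on wording, and 91 other nuclear genes whose description mentions ribosomes in another way, among them the remaining copies of some subunits, are not members.

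A cytosolic ribosome needs a single copy of nearly every ribosomal protein, and in Arabidopsis most of these proteins are encoded by small families of close paralogs scattered over the chromosomes. Plastid and mitochondrial ribosomes are of the bacterial type and draw most of their proteins from separate nuclear genes. In pollen, the large vegetative cell grows the tube and carries a pair of small sperm cells, whose own translation depends on the ribosomes and transcripts they hold.

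In all, 3 groups of 3 libraries were compared. Per the labels, all pollen came from a line carrying MGH3p::MGH3-GFP, a histone fusion under a sperm promoter, and ACT11p::H2B-mRFP, a histone fusion under a pollen actin promoter, so that all groups share both transgenes, and the genotype is given as WT. Sperm cells were sorted from tubes grown in vitro for 6 h on germination medium, or semi in vivo, where Col-0 pistils were pollinated for 2 h, cut, and kept for 4 h until tubes emerged. Vegetative nuclei were sorted from in vitro tubes. Smart-seq2, which amplifies full-length cDNA by PCR and does not mark the strand or the molecule, was used for all libraries. A sorted sperm cell brings its cytoplasm and a sorted nucleus does not, so cell type and compartment cannot be told apart between these groups. In sorted bulk samples, fewer cells and less RNA per cell cannot be told apart either.

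Total counts ranged from 13768069 to 41118337 per library. Libraries differed in how many genes had any count: in vitro sperm library 2 had 26982 against 17785 and 18742 in the others, semi in vivo sperm library 3 had 11640 against 19079 and 19219, and vegetative nucleus library 1 had 7850 against 12645 and 16217. Levels are given as CPM, the customary scaling of counts that gives every library the same total. The summed levels of the marker lists went with the labels. That of 7 sperm markers, most of it from PCR11, was 8903 to 10144 CPM in sperm against 73.2 to 197 CPM in nuclei, while that of 8 vegetative cell markers was 34.4 to 71.3 CPM in sperm against 28899 to 43643 CPM in nuclei. A single sperm marker, GEX2, was near 0 in every library, at 0.417 CPM or less. The summed level of 7 pistil and leaf markers was 0.829 to 2.77 CPM in sperm except in vitro library 2, where it was 11.01 CPM, and 0, 5.03 and 1.61 CPM in nuclei. Its part in the results below was not tested. A change is called at an adjusted p under 0.05 in edgeR's quasi-likelihood test, adjusted over all genes tested.

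The cytosolic ribosomal protein genes together took a small share of the sperm counts and a smaller share in vegetative nuclei. They summed to 0.149% ± 0.0106 (SD, n = 3) of the counts in in vitro sperm, 0.156% ± 0.0106 in semi in vivo sperm and 0.0311% ± 0.00306 in nuclei. The sperm groups overlapped, while every sperm library lay above every nucleus library, with a ratio of 4.78 between in vitro sperm and nuclei. The small subunit genes summed to 0.0573% in in vitro sperm and 0.00451% in nuclei, and the large subunit genes to 0.0914% and 0.0266%. In nuclei, 50.999% of the cytosolic sum was counted at RPL18AA (AT1G29970), against 0.276% in in vitro sperm. The coding sequence of RPL18AA is longer than that of the L18a gene it overlaps, so what these counts measure is uncertain. Without RPL18AA and RPL10 (AT1G14320), the 2 cytosolic members called lower in sperm, the sums were 0.148% in in vitro sperm and 0.00972% in nuclei. The ratio was then 15.2, but those genes were left out because of their values. All these shares are of read counts, corrected neither for gene length nor for the few very abundant transcripts of a library.

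**Figure D1:**
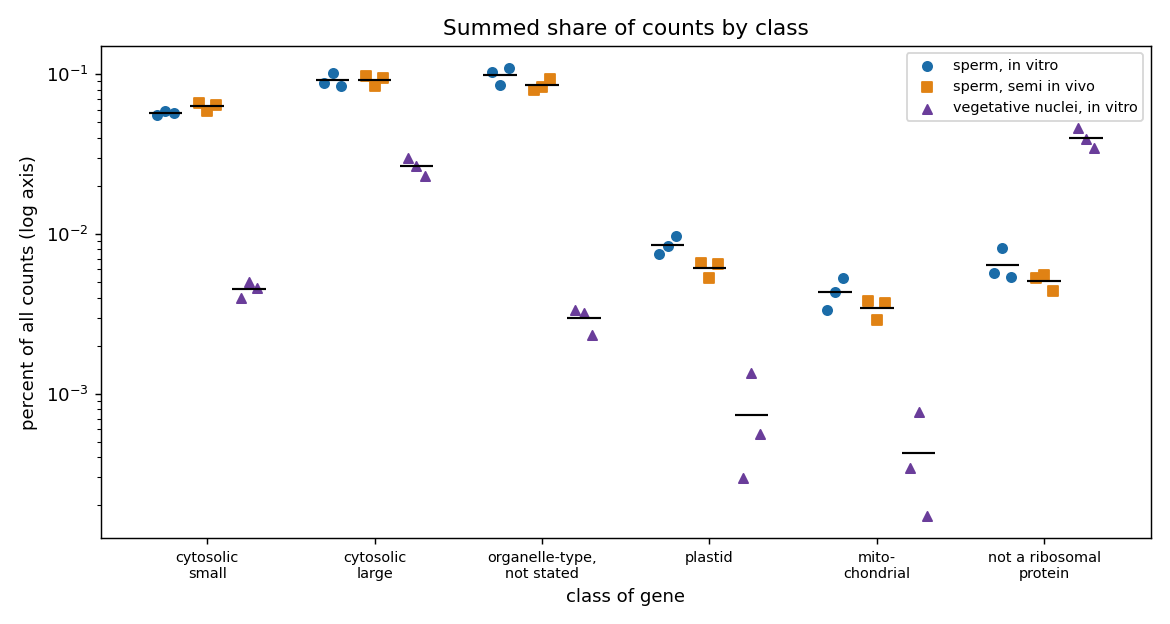
Percent of all counts of a library (log axis) taken by each class of gene, 1 point per library, with a line at the mean of each group of 3. All ribosomal protein classes lie lower in vegetative nuclei (triangles) than in both sperm groups, and the genes that share only the words lie higher there.

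The level was concentrated in few genes. In in vitro sperm the 5 highest cytosolic members held 54.5% of the cytosolic sum and the 10 highest 67.7%, and in semi in vivo sperm 52.3% and 68.5%. The median cytosolic member stood at 0.808 CPM in in vitro sperm, 0.763 CPM in semi in vivo sperm and 0.106 CPM in nuclei. At least 1 CPM in all 3 libraries was reached by 66 of 172 cytosolic members in in vitro sperm, 68 in semi in vivo sperm and 9 in nuclei, and 4 had no count in any library. Taken by subunit family, 48 of 62 families summed to 1 CPM or more in all 6 sperm libraries and 10 did so in all 3 nucleus libraries. Members of the families S8 and S27a, the latter with a single member here, summed to less than 1 CPM in each of the 6 sperm libraries. The S27a member, RPS27aA (AT1G23410), had no count in any library. Its gene model overlaps one on the opposite strand by 885 bases, and the part of this overlap was not tested.

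The highest member in sperm was AT1G07210, described as ribosomal protein S18, a bacterial-type small subunit protein whose compartment is not stated. It stood at 885, 717 and 964 CPM in in vitro sperm, 644, 701 and 785 CPM in semi in vivo sperm and 15.8, 11.7 and 7.68 CPM in nuclei. The sperm groups overlapped and all 6 lay far above the nuclei. It alone made up 86.1% of the level of its class in in vitro sperm and 83.3% in semi in vivo sperm. RPL30B (AT1G77940), a large subunit protein of the L30 family, followed with 326, 409 and 291 CPM in in vitro sperm, 312, 285 and 269 CPM in semi in vivo sperm and 7.26, 4.64 and 2.34 CPM in nuclei. Per coding length the levels of the pair were close, at 1088 CPM per kb for AT1G07210 and 1009 CPM per kb for RPL30B in in vitro sperm, against 240 CPM per kb for AT3G60770 (S13), the next. The gene model of AT1G07210 overlaps a gene on the opposite strand by 58 bases, and reads there cannot be assigned by strand.

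The remaining high cytosolic members of sperm were of the small and the large subunit alike. AT2G17360 (S4) stood at 142, 155 and 155 CPM in in vitro sperm, 158, 153 and 135 CPM in semi in vivo sperm and 10.8, 7.96 and 12.6 CPM in nuclei. AT3G04840 (S3a) stood at 127, 116 and 132 CPM, then 126, 109 and 129 CPM in semi in vivo sperm, and 5.67, 4.69 and 0 CPM in nuclei. For both genes the sperm groups overlapped and the nuclei lay below. ATL5 (AT3G25520), the L5 protein that binds 5S ribosomal RNA, stood at 86.9, 74.0 and 90.2 CPM in in vitro sperm, 90.7, 91.4 and 120 CPM in semi in vivo sperm and 0, 1.48 and 1.57 CPM in nuclei. The large subunit genes emb2386 (AT1G02780, L19), AT4G17390 (L15) and ATRPL23A (AT2G39460, L23a) averaged 58.1, 49.9 and 46.4 CPM in in vitro sperm. The emb symbol marks a gene found through embryo-defective mutants.

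**Figure D2:**
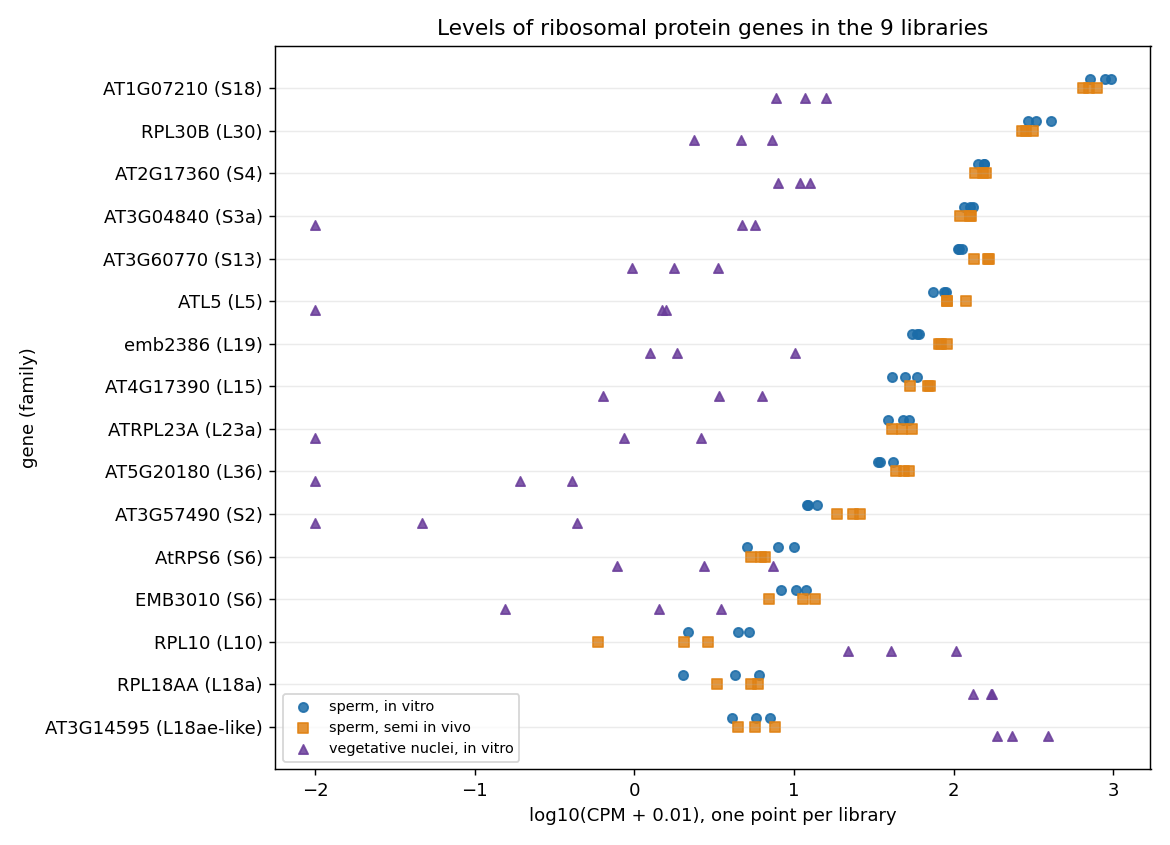
Level of 16 genes on a log10 scale (CPM plus 0.01), 1 point per library, with the family in brackets. Points at the left edge are libraries with no count. AT1G07210 and RPL30B are highest in sperm, and RPL18AA, RPL10 and AT3G14595 are higher in vegetative nuclei.

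The promoters shown are those of the highest sperm members per coding length and of RPL18AA, the highest cytosolic member of nuclei. Each is the 250 bases before the annotated start in RefSeq's TAIR10.1 assembly, 5′ to 3′ on the gene's strand, with capitals marking the site II elements TGGGCC and TGGGCT on either strand. The windows are chr1:2214966-2215215 on the plus strand for AT1G07210, chr1:29305412-29305661 on the minus strand for RPL30B, chr3:22461780-22462029 on the minus strand for AT3G60770 and chr1:10501428-10501677 on the minus strand for RPL18AA.
AT1G07210: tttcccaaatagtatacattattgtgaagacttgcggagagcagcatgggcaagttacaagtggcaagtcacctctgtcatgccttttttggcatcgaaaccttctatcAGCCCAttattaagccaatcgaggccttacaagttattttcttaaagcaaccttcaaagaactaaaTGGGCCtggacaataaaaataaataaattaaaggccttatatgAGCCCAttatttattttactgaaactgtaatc
RPL30B: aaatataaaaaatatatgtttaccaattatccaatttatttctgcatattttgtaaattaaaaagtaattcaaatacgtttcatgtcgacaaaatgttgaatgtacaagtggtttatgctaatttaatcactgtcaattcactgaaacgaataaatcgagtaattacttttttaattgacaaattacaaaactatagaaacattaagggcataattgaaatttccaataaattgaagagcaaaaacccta
AT3G60770: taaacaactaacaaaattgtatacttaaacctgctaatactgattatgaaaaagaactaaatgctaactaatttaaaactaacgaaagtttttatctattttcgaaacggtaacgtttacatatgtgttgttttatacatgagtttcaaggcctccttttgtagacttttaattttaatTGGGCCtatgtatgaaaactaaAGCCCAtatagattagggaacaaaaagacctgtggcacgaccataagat
RPL18AA: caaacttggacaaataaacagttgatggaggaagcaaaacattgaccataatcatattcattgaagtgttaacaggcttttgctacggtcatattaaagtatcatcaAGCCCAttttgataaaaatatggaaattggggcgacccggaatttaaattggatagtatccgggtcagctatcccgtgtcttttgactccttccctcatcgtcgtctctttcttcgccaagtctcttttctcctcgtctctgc

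Site II elements and the telo box AAACCCTAA are motifs described in promoters of plant ribosomal protein and other growth-related genes. The AT1G07210 window held 3 site II elements, that of AT3G60770 2, that of RPL18AA 1 and that of RPL30B none, and none of the 4 held a telo box, although the RPL30B window ends with all but the last letter of that motif. Among all 172 cytosolic members, 122 windows (70.9%) held a site II element on either strand and 25 (14.5%) a telo box, against 19.4% and 2.77% of 27443 protein-coding genes. A site II element stood in 44 of 62 cytosolic members that were higher in sperm than in nuclei, in 31 of 37 that did not pass the test and in 45 of 71 that were too low to test. Overlapping matches were counted as separate elements, and a match is a description of letters only.

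Paralogs of a subunit were used unequally in sperm. No cytosolic family reached 10 CPM in all 9 libraries: 21 did so in all 6 sperm libraries, and L10 and L18a in all 3 nucleus libraries. Families were therefore taken that summed to 10 CPM or more in all 6 sperm libraries, a choice made after the values were seen. All 21 are families with more than a single member. In 18 of them the same gene held at least 50% of the family counts in every sperm library, and in 10 at least 90%. Family counts here are those of members only, so copies of a subunit outside the wording rule are missing from them. Gene models of 72 of the 302 members overlap one on the opposite strand, and reads there cannot be assigned by strand. RPL27A (AT1G23290), an L27a gene without a count in any sperm library, overlaps such a model by 801 bases. In L27a another gene held 96.1% or more in every sperm library. How far overlaps shaped the shares was not tested. RPL16A (AT2G42740), which held 99.0% to 100% of L11, shares the most 50-base stretches of coding sequence with AT3G58700, which is not a member. RPL30B held 97.8% to 99.4% of the L30 counts, AT3G04840 98.8% to 99.6% of S3a, AT2G17360 98.6% to 100% of S4, AT3G60770 96.0% to 97.7% of S13 and ATL5 92.7% to 98.1% of L5. The second S13 gene, ATRPS13A (AT4G00100), averaged 3.57 CPM and the second L5 gene, OLI7 (AT5G39740), 3.83 CPM in in vitro sperm. In the L19 family emb2386 held 81.1% to 84.5% while RPL19B (AT3G16780) averaged 11.7 CPM in in vitro sperm.

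**Figure D3:**
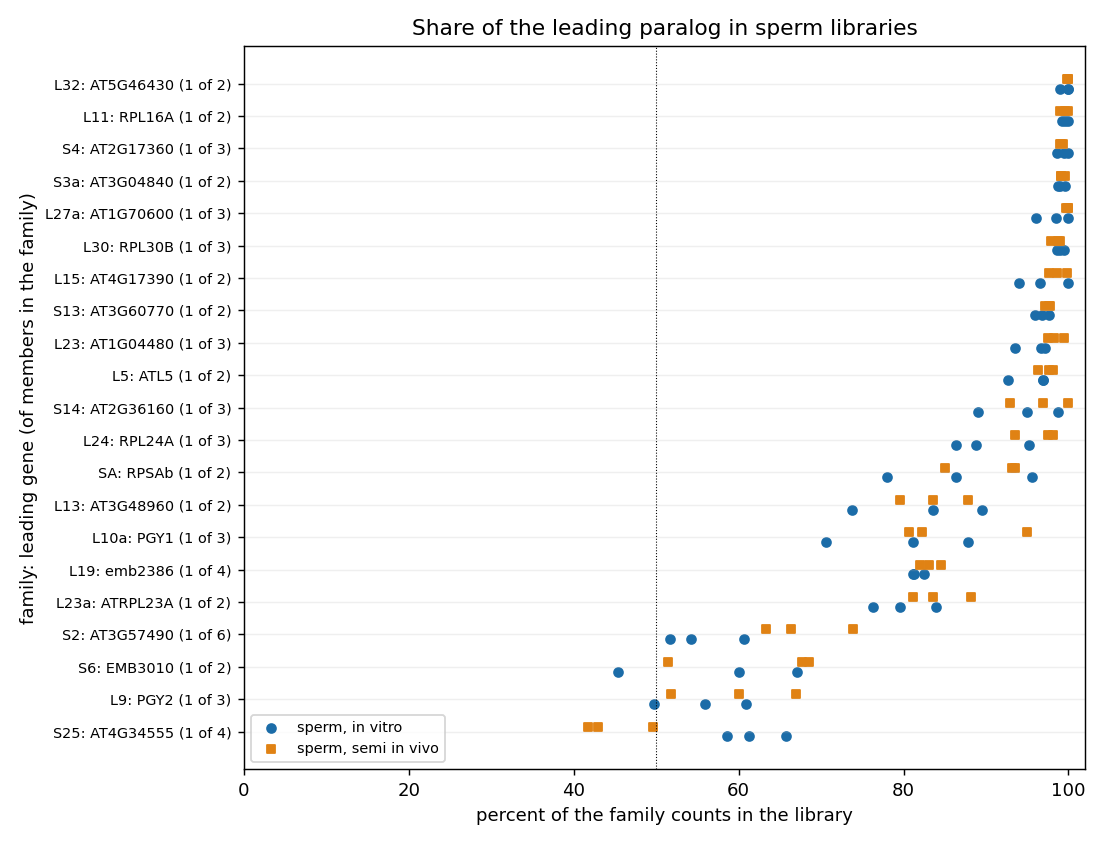
Percent of a family's counts that came from its leading gene, 1 point per sperm library, for the 21 families at 10 CPM or more in all 6 sperm libraries. The dotted line marks 50%. In S25 the semi in vivo libraries lie below the in vitro libraries and in S2 above them.

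Families without a single dominant gene were S6, L9 and S25. The S6 protein is the ribosomal substrate of S6 kinases in the TOR pathway. Its genes AtRPS6 (AT4G31700) and EMB3010 (AT5G10360) took 31.5% to 54.7% and 45.3% to 68.5% of the S6 counts across sperm libraries. The L9 genes PGY2 (AT1G33140) and AT1G33120 averaged 18.8 and 14.2 CPM in in vitro sperm. They share 76.3% of the 50-base words of their coding sequence, so that reads may be split between them in ways the counting decides. In the S25 family, AT4G34555 held 65.8%, 58.6% and 61.2% of the counts in in vitro sperm and 49.6%, 41.7% and 43.0% in semi in vivo sperm. AT2G21580 held 26.1%, 31.1% and 31.6%, then 40.7%, 52.8% and 49.5%. The groups did not overlap for either gene, and AT2G21580 was the larger in semi in vivo libraries 2 and 3.

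In the S2 family, AT3G57490 held 54.2%, 60.7% and 51.7% of its counts in in vitro sperm and 66.3%, 63.4% and 73.9% in semi in vivo sperm, without overlap. Of the other S2 copies, XW6 (AT1G58380) averaged 6.02 CPM in in vitro sperm and AT2G41840 4.07 CPM, and the near-identical AT1G58684, AT1G58983 and AT1G59359, all of whose 50-base words recur in another gene, averaged 0.0346, 0.0602 and 0 CPM in in vitro sperm and 0.205, 0.221 and 0 CPM in semi in vivo sperm. Such separation was about as frequent here as in other families. Of the 58 member shares in the 21 families, 7 (12.1%, in S2, S25, L23 and S4) did not overlap between the sperm groups. In the 31 other cytosolic families with paralogs and a count in every sperm library, 11 of 97 (11.3%) did not. Over all genes tested, levels did not overlap for 4.15% that were higher and 12.2% that were lower in semi in vivo sperm, and no test was made of the shares. Of the 172 cytosolic coding sequences, 128 share no 50-base word with another gene and 9 share more than 50%. The median sperm level showed no steady order with sharing, at 0.814 CPM for the 128, 2.20 CPM for 28 that share up to 20% of their words, 0.510 CPM for 7 that share more than 20% and up to 50%, and 0.374 CPM for the 9.

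Semi in vivo and in vitro sperm were compared to ask how passage through the pistil goes with these transcripts. None of the 184 members tested was called, where 0.63% of all 14131 genes were. By unadjusted p, 11 members lay under 0.05, or 9 of the 120 cytosolic members tested, against 8.05% of all genes. DESeq2 called 5 of the 178 members to which it gave an adjusted p, and 3.4% of all 15335 such genes, so that neither count stands out for the members. The median log2 fold change was 0.15 for cytosolic members, 0.01 for all members and -0.17 for all genes. It was 0.23 for small subunit and 0.07 for large subunit genes, and -0.67 for the 14 plastid members tested. All 9 cytosolic members under an unadjusted 0.05 had a positive fold change. The share of positive changes among all genes under that level was not counted, so nothing is read from this direction. At 10 CPM or more, members with the smallest p are given here although they did not pass.

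AT3G57490, the S2 gene above, stood at 11.96, 13.9 and 12.2 CPM in in vitro sperm and 23.4, 18.6 and 25.7 CPM in semi in vivo sperm, a log2 fold change of 1.03 ± 0.26 (SE) with an edgeR adjusted p of 0.101. AT2G21580 (S25) stood at 8.71, 12.02 and 9.76 CPM, then 16.2, 19.02 and 20.6 CPM, with a log2 fold change of 1.07 ± 0.27 and an adjusted p of 0.101. All semi in vivo libraries lay above all in vitro ones for both genes, which are proteins of the small subunit. For emb2386 (L19) the values were 54.7, 61.0 and 58.5 CPM against 91.3, 82.8 and 80.7 CPM, and for AT3G60770 (S13) 113, 107 and 108 CPM against 164, 134 and 166 CPM. Their log2 fold changes were 0.74 ± 0.19 and 0.69 ± 0.19, with edgeR adjusted p of 0.106 and 0.135, and again the groups did not overlap. These 4 genes passed in DESeq2, with adjusted p of 0.0300, 0.0296, 0.00239 and 0.0129, as did AT4G11630, an organelle-type L19 gene at 1.38, 1.65 and 0.790 CPM in in vitro sperm and without a count in the semi in vivo libraries.

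The other genes of that set were AT1G04480 (L23), AT5G20180 (organelle-type L36), AT4G17390 (L15), RPL19B (L19), ATL5 (L5) and RPL24A (AT2G36620, L24). Their log2 fold changes ran from 0.46 for ATL5 to 0.82 for AT1G04480, with edgeR adjusted p from 0.211 to 0.599. The groups were apart for AT1G04480, AT5G20180 and ATL5 and overlapped for the others. AtRPS6 and EMB3010 had log2 fold changes of -0.13 ± 0.37 and 0.25 ± 0.35. Groups did not overlap in 9 members that were higher and 10 that were lower among the 184 tested, where the shares over all genes were 4.15% and 12.2%.

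In vitro sperm and vegetative nuclei were compared to ask how the transcripts differ between sperm cells and the vegetative nucleus. The cytoplasm of the vegetative cell was not sampled. The in vitro sperm libraries are those of the comparison above. Of 158 members tested, 85 were higher in sperm, 6 were lower and 67 did not pass, where 44.9% of all 14061 genes were called, 30.7% higher and 14.3% lower. Of 101 cytosolic members tested, 62 were higher, 2 lower and 37 did not pass. The split was 26 and 0 of 43 for the small subunit and 36 and 2 of 58 for the large subunit. Of 19 members of unstated organelle compartment, 9 were higher and 1 lower, of 13 plastid members 6 were higher, and of 7 mitochondrial members 4 were higher. The median log2 fold change was 5.83 for cytosolic members and 1.70 for all genes. It was 5.15 with the 16 cytosolic members at 0 in all nucleus libraries set to the bound that 3 counts over the group allow. Members that passed the expression filter through their sperm level alone had to differ, so these counts describe the genes tested and not all 302.

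This comparison depends on the scaling and on single libraries. TMM scaling raised the log2 ratio by 0.94 over plain CPM, and by 0.19 between the sperm groups. Without in vitro library 1, the number of cytosolic members higher in sperm was 33, and without in vitro library 2 it was 41. When nuclei were set against the semi in vivo group, 61 cytosolic members were higher in sperm. Shares over all genes are not given for these settings, so the counts are not read as particular to the members.

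**Figure D4:**
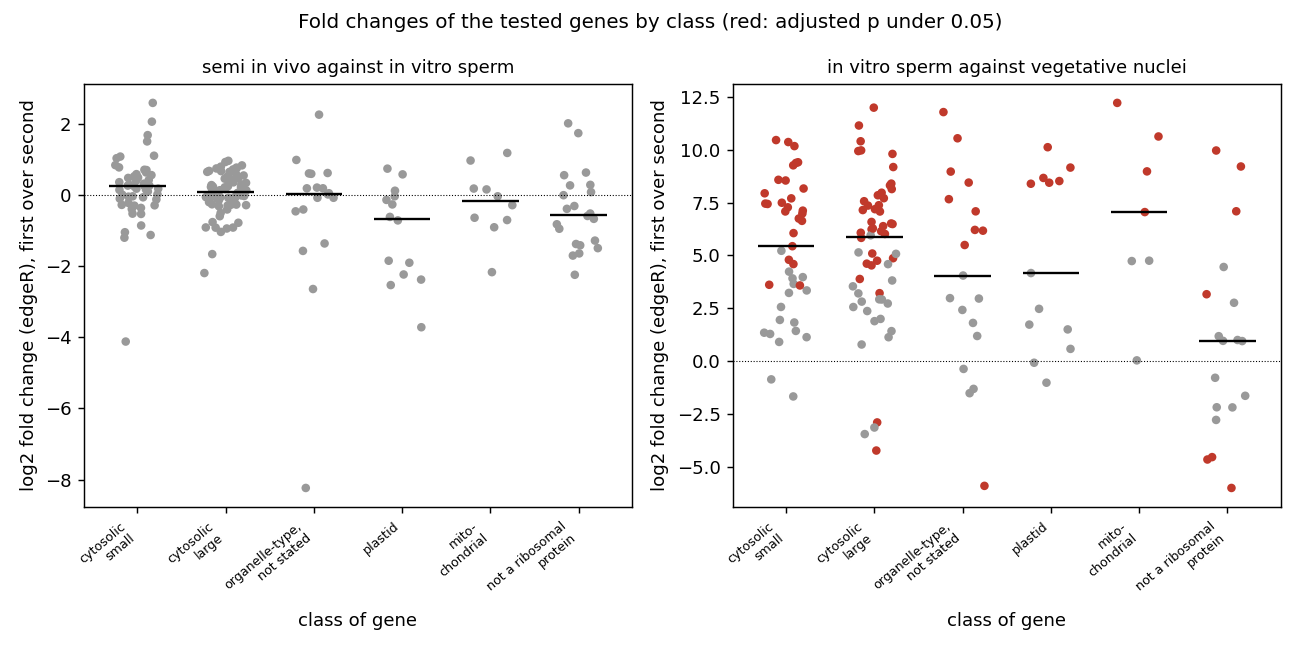
edgeR log2 fold change of each tested gene by class for both comparisons, with a line at the class median. Red points passed an adjusted p of 0.05: none between the sperm groups, and 85 higher and 6 lower in in vitro sperm against nuclei.

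Among the genes higher in sperm, AT1G07210 had a log2 fold change of 7.09 ± 0.61 (SE), RPL30B 7.08 ± 0.77, AT3G60770 6.64 ± 0.82 and AT2G17360 4.796 ± 0.57, with edgeR adjusted p of 0.000619, 0.00105, 0.00164 and 0.00122. For all 4 the groups were far apart in the values given above. RPL18 (AT3G05590), a large subunit protein, stood at 15.8, 11.6 and 12.5 CPM in sperm and 0, 0 and 0.0366 CPM in nuclei. ATL5 had a log2 fold change of 7.38 ± 1.38, RPL19B 7.57 ± 1.28, AT3G57490 7.28 ± 1.501 and AT4G34555 (S25) 7.44 ± 1.28, and all 4 passed. AT1G70600 (L27a) and AT2G37190 (L12) reached 8.40 ± 1.65 and 7.85 ± 1.75, with 17.8 and 14.2 CPM on average in sperm and 0.106 and 0.110 CPM in nuclei.

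Of the called genes, 3 had no count in any nucleus library and at least 10 CPM in every library of a sperm group, 1 for the cytosol and 2 for organelles. AT3G48960 (L13) stood at 15.3, 9.92 and 13.4 CPM in in vitro sperm and 14.95, 12.5 and 12.7 CPM in semi in vivo sperm. RPS9M (AT3G49080), a mitochondrial small subunit protein, stood at 11.1, 13.1 and 19.1 CPM in in vitro sperm, and AT3G13882, a bacterial-type L34 protein, at 10.99, 11.3 and 10.2 CPM. Against 3 counts over the nucleus group, they were 327-fold, 367-fold and 275-fold higher in in vitro sperm on the CPM scale. As they were picked for having no count in nuclei, a large ratio follows from the choice. The gene model of RPS9M overlaps one on the opposite strand by 477 bases. RPL3P (AT3G17465), listed as a plastid L3 protein, stood at 58.0, 44.8 and 79.0 CPM in sperm against 0, 0.939 and 0.0732 CPM in nuclei, and AT5G20180 (L36) at 41.4, 33.4 and 34.7 CPM against 0, 0.398 and 0.183 CPM. In all, 28 of the 158 members tested had no count in nuclei, 16 of them cytosolic. The share of all genes tested without a count there is not given, so nothing particular to the members is read from this. The ratios against 3 counts reflect counting error alone and are no firm minimum, because copies made by PCR are not separate molecules.

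Only RPL18AA and RPL10 (AT1G14320) among tested cytosolic members passed as lower in sperm. RPL18AA, a large subunit L18a gene, stood at 2.004, 6.02 and 4.28 CPM in in vitro sperm, 5.37, 5.93 and 3.29 CPM in semi in vivo sperm and 133, 173 and 170 CPM in nuclei. Its log2 fold change was -4.22 ± 0.73, with an edgeR adjusted p of 0.00493. The L18a paralogs L18aB (AT2G34480) and AT3G14600 averaged 2.14 and 2.26 CPM in in vitro sperm and 0.559 and 0.0244 CPM in nuclei. RPL18AA overlaps RPL18aD (AT1G29965) on the same strand by 1112 bases and shares 53.1% of its coding words with it. The RPL18AA coding sequence holds 890 such words, against 488 in RPL18aD and AT3G14600 and 605 in L18aB. Whether the counts fell in the part that RPL18aD lacks was not tested. RPL18aD itself averaged 0.186 CPM in nuclei, so the values of this pair are uncertain. RPL10 stood at 2.14, 5.21 and 4.47 CPM in in vitro sperm, 2.04, 2.89 and 0.578 CPM in semi in vivo sperm and 104, 40.2 and 21.9 CPM in nuclei. Its log2 fold change was -2.89 ± 0.94, with an edgeR adjusted p of 0.0413, which rose to 0.0668 to 0.118 on leaving out any 1 in vitro library. Its paralog RPL10B (AT1G26910) averaged 2.25 CPM in in vitro sperm and 0.668 CPM in nuclei. The gene that shares the most coding words with either, AT1G66580, is not a member and was not followed.

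Other members lower in sperm were mostly genes that are no ribosomal proteins. AT3G14595, described as an L18ae family protein, stood at 391, 231 and 187 CPM in nuclei, the highest level of any member there, and at 4.08, 7.06 and 5.72 CPM in in vitro sperm. Of 5 such L18ae-like genes, AT3G14595 and AT1G17080 were lower in sperm, with log2 fold changes of -4.64 ± 0.70 and -4.53 ± 1.07, 2 did not pass and 1 was not tested. The AT1G17080 call, at an edgeR adjusted p of 0.0153, was lost without in vitro library 1 (0.0544). AT5G15260, described as an L34e superfamily protein, averaged 32.98 CPM in nuclei and 0.229 CPM in in vitro sperm. AT5G64670, a bacterial-type L15 gene, was the other, at 15.2, 0.853 and 3.44 CPM in nuclei and 0.136 CPM or less in in vitro sperm. The S6 genes differed in their calls: EMB3010 stood at 10.3, 8.22 and 11.9 CPM in in vitro sperm and 0.145, 1.42 and 3.48 CPM in nuclei and was higher in sperm (log2 fold change 3.62 ± 1.17, edgeR adjusted p 0.0396), whereas AtRPS6 stood at 5.04, 9.92 and 7.90 CPM against 7.41, 0.768 and 2.71 CPM and did not pass (1.95 ± 1.12, adjusted p 0.202). The difference between the S6 genes was not tested, and the EMB3010 call was lost, with an adjusted p of 0.0568, 0.0548 and 0.158, under a replicate block, upper-quartile scaling and TMM factors from unfiltered genes.

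Among 48 other genes of translation, ribosome assembly and TOR signalling, chosen by name and description, 33 were tested in each comparison. Between sperm and nuclei 14 were higher in in vitro sperm, 4 were lower and 15 did not pass, where 30.7% of all genes were higher and 14.3% lower. Nothing particular to this short list is read from these counts. Of 7 tested acidic stalk protein genes, the P proteins of the large subunit, 5 were higher, led by AT2G27720 at 17.4 ± 5.52 (SD, n = 3) CPM in sperm against 0.240 ± 0.384 CPM in nuclei. RPP1.2 (AT4G00810), another P protein, was lower in sperm, at 0.0346 and 19.3 CPM. The assembly factor REIL1, whose yeast relative acts in the maturation of 60S subunits, averaged 2859 ± 345 CPM in in vitro sperm. It stood above every ribosomal protein gene there. In nuclei REIL1 averaged 123 ± 28.02 CPM, and RPL18AA was higher on average but not in nucleus library 1. EIF4A1, an RNA helicase of translation initiation, was lower in sperm, at 1.70 and 82.5 CPM, and EIF4A-2 higher, at 17.8 and 5.95 CPM. Between the sperm groups 1 of 33 was called, where 0.63% of all genes were: S6K2, an S6 kinase, rose from 36.8 ± 13.9 CPM in vitro to 75.7 ± 8.01 CPM semi in vivo (log2 fold change 1.25 ± 0.25, edgeR adjusted p 0.0304). S6K1 was higher in in vitro sperm than in nuclei, at 409 and 66.2 CPM. The list contains LOS1, which is also counted above.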

How the data were processed

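Per the submitters' processing notes, the tools were Trim Galore, HISAT2 and featureCounts and the build was TAIR10. Not given in the sources used here were tool versions, the strand setting and how multi-mapping reads were handled. The deposited table holds the authors' raw count per gene for 9 libraries of 3 groups. Genes were tested with edgeR 4.0.16 in R 4.3.3 on the 6 libraries of each comparison (filterByExpr with a minimum count of 10, TMM factors, robust quasi-likelihood F test, Benjamini-Hochberg over all genes), and standard errors were derived as the size of the log2 fold change divided by the root of F. CPM values use library totals with no further scaling.

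Members were classed by hand from descriptions and reference notes, and all 302 were found in the reference. The members and gene lists were chosen with earlier results of these data known. Named genes were up to 12 members called in each direction without overlap of groups at 10 CPM or more, the 10 of smallest p where fewer than 6 passed, the 8 highest per coding length in each group, the S6 genes, and members at 0 in a whole group and at 10 CPM in every library of another. The rule on paralog shares took no family. Other members named as paralogs were chosen after their values were seen.

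Nothing in the labels says that replicates came from separate plants or cultures, so the p-values reflect only how these samples differ, and that spread may be technical. Duplicate libraries were not found, with a chi-square of 25.3 to 369 per gene. The procedure was run on counts simulated with the same dispersion for every gene. That setting lacks the uneven gene detection of these libraries, so it checks the code and not the error rate in these data. Alternatives were RLE and upper-quartile scaling, TMM factors from unfiltered genes, DESeq2 1.42.0, other filters, each library left out, a replicate block, all 9 libraries together, semi in vivo sperm against nuclei, other denominators for shares, and shares per coding length. Promoters and coding sequences came from RefSeq TAIR10.1, and all 302 members had both. Protein sequences were not used here.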

Additional observations from a re-analysis of the deposited data

How the results depend on the processing

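Between the sperm groups the number of members called was 0 under all planned settings except DESeq2, which called 5 and gave no adjusted p for 117 of 295. Each library left out gave 0 to 0, as did leaving out in vitro library 2 and semi in vivo library 3 together, an alternative chosen after seeing the data. Between in vitro sperm and nuclei, 91 members were called, 85 higher and 6 lower. Without an expression filter 54 were called, 48 of them higher and 35 of those cytosolic, and with at least 5 CPM in 3 libraries, which left 51 members to test, 45, 40 and 31. DESeq2 called 128 of 244 members higher, and 35.8% of all genes to which it gave an adjusted p. Without in vitro library 2 and nucleus library 1 together, also chosen after seeing the data, 47 were called, 43 higher and 32 of those cytosolic. Each library left out gave 48 to 88 calls, 45 to 82 higher and 3 to 6 lower, with 33 to 60 cytosolic members higher. In vitro library 1 moved these counts most. Apart from DESeq2, shares over all genes are not given for these alternatives, so the changes are not read as particular to the members. The cause of the changes was not tested.

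The ratio of the cytosolic share was 1.05 between the sperm groups, 1.02 to 1.09 with each library left out, and 4.78 between in vitro sperm and nuclei, 4.54 to 5.00 with each library left out. With the 10 most abundant genes of each library removed from the denominator it was 7.05. The leading gene held at least 50% of the counts of the members in 18 of 21 families, and in 18 to 19 with each sperm library left out.

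Deviations of same-numbered libraries correlated at -0.006, 0.011 and 0.098 between the sperm groups. Between in vitro sperm and nuclei the values were 0.021, 0.053 and 0.017. Libraries of different number correlated at -0.13 to 0.12 between the sperm groups and at -0.055 to 0.031 between in vitro sperm and nuclei. All these values are small, and the labels do not say whether the numbers mark a shared batch. With a replicate block 0 members were called between the sperm groups and 73 between sperm and nuclei, 69 higher and 4 lower, with 50 cytosolic members higher. The share of all genes called with the block is not given.

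Signs of small, uncalled log2 fold changes were unstable. Between the sperm groups, with each library left out, they ranged from -0.24 to 0.092 for AT1G07210 (positive also without semi in vivo library 1, at 0.029), from -0.071 to 0.044 for RPL30B, from -0.31 to 0.042 for AtRPS6 and from -0.0042 to 0.53 for EMB3010. Without in vitro library 2 and semi in vivo library 3 together, RPL30B was at 0.056 and EMB3010 at -0.18. Against nuclei, AT5G02740, an S24e-like gene with 1.01 in the main test, changed to -0.23 with TMM factors from unfiltered genes and without a filter, to between -0.29 and 1.55 with each library left out, negative without nucleus library 1, and to -0.54 without that library and in vitro library 2. Of the called genes followed, AT3G04840, AT1G17080, RPL10 and EMB3010 lost their call under at least 1 alternative; AT3G04840 went from an edgeR adjusted p of 0.0251 to 0.0674, 0.0619 and 0.0597 without in vitro library 1, nucleus library 1 and nucleus library 2. Counts near 0 in nuclei limit the size of the largest fold changes.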
